A study of Mus musculus with 2 samples.

Results

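The genes described here are 40 mouse genes that encode mitotic kinases and their cyclins, the spindle checkpoint, the kinetochore, the spindle motors and the machinery of chromosome separation and cytokinesis. They were chosen by name, with earlier results of these data known. All 40 were found among the 21474 protein-coding genes of the annotation. Polyadenylated RNA of leukemia stem cells was read from both ends in 2 libraries, biological replicates 1 and 2 of 1 group. Per the labels, the cells carried Friend virus, which gives mice an erythroleukemia, and were CD34+, CD133+, Kit+ and Sca1+. They came from adults of 10 to 12 weeks, males and females pooled, of a strain with the virus-sensitive allele of Fv2. Both libraries carry all of these features. No uninfected or other control entered the comparisons, so the levels are described within this group and between its replicates. The labels name 1 donor record and separate biosamples and do not say how the cells were divided, so the spread between the replicates may be partly technical.

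Entry into mitosis is driven by Cdk1 bound to cyclin B, which the Cdc25 phosphatases activate and which the aurora and polo kinases assist. The checkpoint proteins at unattached kinetochores hold back Cdc20, the activator of the anaphase-promoting complex, until every chromosome is attached. The complex then marks cyclin B and securin for destruction, sister chromatids part, and kinesins and the central spindle proteins divide the cell. In cycling mammalian cells most of these genes are transcribed in late S phase, G2 and mitosis, so their RNA is known as a sign of dividing cells. Red cell precursors divide several times before they leave the cycle.

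Replicate 1 held 23575315 expected counts and replicate 2 held 22541765; an expected count is an estimated number of fragments and need not be whole. Levels are deposited TPM, a length-corrected share of all transcripts in a library. Counting error is given by exact binomial intervals at 95%, which cover counting error only. Of the markers named in the labels, Kit had 1.81 TPM in replicate 1 and 1.06 TPM in replicate 2, Cd34 had 1.80 and 0.27 TPM, Ly6a (Sca1) had 1.45 and 2.15 TPM, and Prom1 (CD133) had 0.06 and 0 TPM. The 10 erythroid markers took up 11.4% of transcripts in replicate 1, against 22.4% in replicate 2, all 10 at 1 TPM or more in both. That sum rests on alpha globin, and 8 of the 10 had a log2 ratio above 0 by scaled counts, with medians of 1486 TPM in replicate 1 and 362 TPM in replicate 2. Of 8 macrophage markers 6 were at that level in both libraries, with sums of 920 TPM in replicate 1 and 1248 TPM in replicate 2 but medians of 47.7 and 16.5 TPM, and of 7 B lineage markers 4 were, with sums of 692 and 281 TPM and Vpreb1 at 0 TPM in replicate 1. Their part in the levels of the mitotic genes was not tested, and fewer cycling cells and less of these RNAs per cell cannot be told apart in bulk RNA.

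Most of the mitotic genes were expressed in both libraries. At 1 TPM or more in both libraries were 36 of the 40, against 41.6% of all protein-coding genes. The higher mark of 10 TPM was met in both libraries by 18 of the 40, against 4594 of all 21474 protein-coding genes. The median gene had 21.8 TPM in replicate 1 and 9.62 TPM in replicate 2. The median of the mean levels was 16.4 TPM, against 0.55 TPM over all protein-coding genes. Mean levels ran from 0.935 TPM for Ttk to 286 TPM for Ccna2. A mean of 100 TPM or more was reached by 6 genes, namely Ccna2, Aurkb, Cdc20, Ube2c, Cdca8 and Plk1, against 1207 of all 21474. Together the 40 genes held 2040 TPM in replicate 1 and 1588 TPM in replicate 2, or 0.204% and 0.159% of all transcripts. The 4 genes under 1 TPM in 1 library, Bub1, Ttk, Ndc80 and Nuf2, were all under it in replicate 2.

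**Figure D1:**
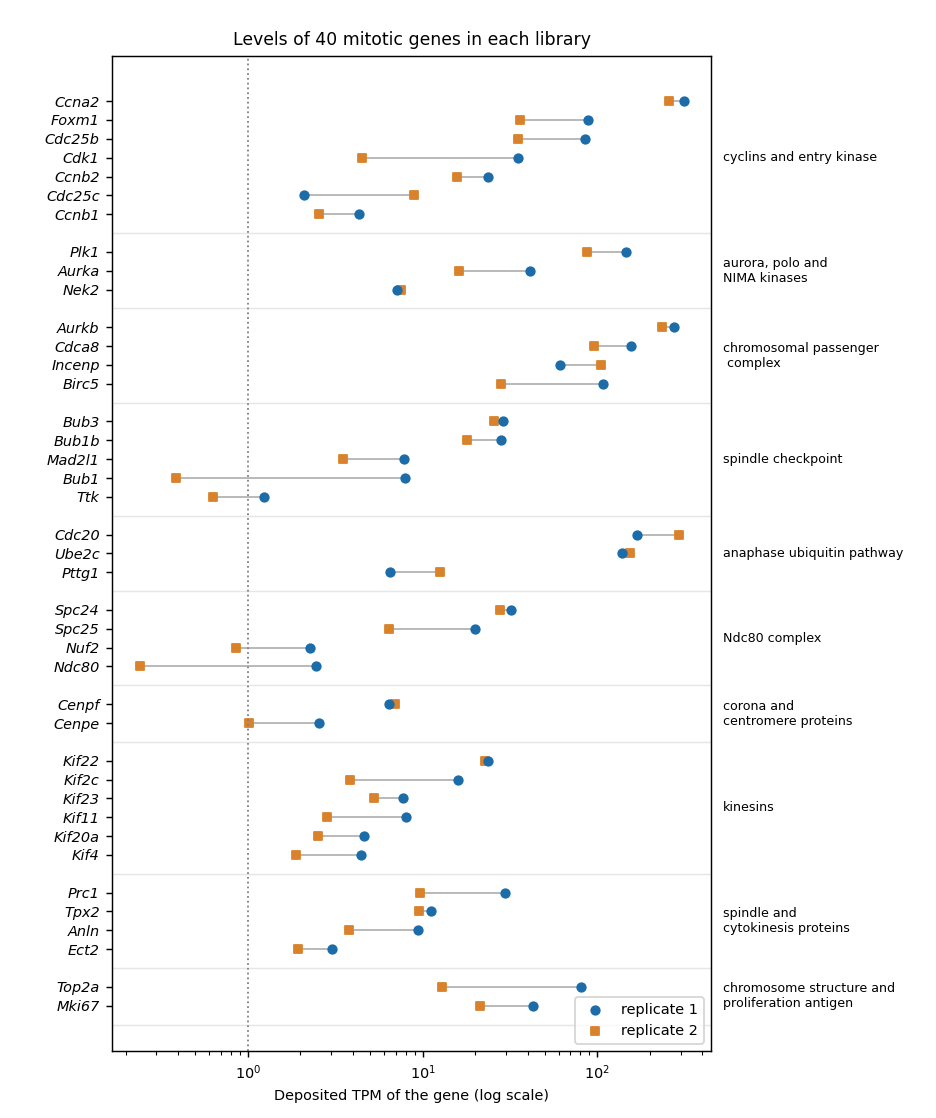
Deposited TPM (log scale) of each of the 40 mitotic genes in replicate 1 (blue circles) and replicate 2 (orange squares), grouped by role, with the dotted line at 1 TPM. Ccna2, Aurkb and Cdc20 lie at the top of the scale in both libraries, and Bub1 and Ndc80 have the widest gaps, with replicate 2 under 1 TPM.

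The promoters of these genes shared sequence elements that their choice by name did not use. Many late cell cycle genes of mammals carry a cell cycle homology element, bound by the MuvB complex, close to their start, together with CCAAT boxes bound by NF-Y. RefSeq promoter windows on GRCm38.p6, of 250 bases before and 50 after the start, were matched for 32 of the 40 genes. Ccna2, Cdc25c, Foxm1, Aurkb, Incenp, Spc24, Kif20a and Tpx2 were not matched. The homology element, searched as TTTGAA or TTCGAA on both strands, was found in 25 of the 32 promoters (78.1%), against 19.3% of 16317 promoters of the same length. A CCAAT box on either strand was also found in 25 of the 32 (78.1%), against 42.0% of all promoters, and 22 (68.8%) held both, against 8.98%. At least 2 CCAAT boxes stood in 18 of the 32 (56.3%), against 14.4%. The E2F core, searched as TTCCCGC or TTGGCGC on both strands, was found in 4 of the 32 (12.5%), against 10.4% of all promoters. With the window cut to 150 bases before the start, the homology element was still found in 25 of the 32 against 11.4% of all promoters, and both elements in 22 against 4.39%. These are matches of letters, counted without a test, and the data hold no measure of binding.

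The 250 bases before the start are shown for Cdk1, Top2a, Cdc20 and Ube2c, since the first of these encodes the mitotic kinase, Top2a had the most matches of the homology element, and the other pair were the most abundant genes by coding transcripts. Each is read 5′ to 3′ along the gene's strand, and capitals mark the homology element, the CCAAT box or the E2F core. Letters on the opposite strand appear as their complement, TTCAAA for the homology element and ATTGG for the CCAAT box.
Cdk1 (chr10:69352913-69353162, minus strand): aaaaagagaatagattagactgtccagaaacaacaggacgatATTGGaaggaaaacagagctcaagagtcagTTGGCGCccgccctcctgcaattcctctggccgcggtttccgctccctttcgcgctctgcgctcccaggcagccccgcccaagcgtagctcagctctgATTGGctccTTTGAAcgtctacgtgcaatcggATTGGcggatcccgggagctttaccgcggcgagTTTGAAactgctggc
Top2a (chr11:99024190-99024439, minus strand): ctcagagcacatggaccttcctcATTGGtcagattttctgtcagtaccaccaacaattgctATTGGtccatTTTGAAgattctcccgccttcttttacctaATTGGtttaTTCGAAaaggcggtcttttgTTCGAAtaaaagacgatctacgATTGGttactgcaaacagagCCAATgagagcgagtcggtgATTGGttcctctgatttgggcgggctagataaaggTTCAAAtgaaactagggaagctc
Cdc20 (chr4:118437344-118437593, minus strand): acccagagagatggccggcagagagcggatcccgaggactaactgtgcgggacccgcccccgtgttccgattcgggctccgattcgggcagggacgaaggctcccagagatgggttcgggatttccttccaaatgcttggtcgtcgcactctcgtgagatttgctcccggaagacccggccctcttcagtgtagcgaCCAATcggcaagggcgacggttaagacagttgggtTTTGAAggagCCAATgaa
Ube2c (chr2:164769679-164769928, plus strand): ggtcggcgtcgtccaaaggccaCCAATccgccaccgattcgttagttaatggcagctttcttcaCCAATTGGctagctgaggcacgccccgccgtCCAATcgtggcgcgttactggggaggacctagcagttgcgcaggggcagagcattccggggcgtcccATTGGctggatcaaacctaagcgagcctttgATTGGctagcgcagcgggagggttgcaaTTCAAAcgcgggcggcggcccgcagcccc

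In Cdk1 the homology element nearest the start lay at -15 to -10, counting the base before the first transcribed base as -1, and a second lay at -71 to -66, beside a CCAAT box on the opposite strand at -80 to -76. Its E2F core lay at -178 to -172. Top2a held 4 matches of the homology element and 6 CCAAT boxes, more of both than any other promoter of the 32 except for the 6 CCAAT boxes of Ube2c. Its nearest homology element, on the opposite strand, lay at -23 to -18. In Cdc20 the element at -18 to -13 lay between CCAAT boxes at -53 to -49 and -8 to -4. In Ube2c it lay at -29 to -24, with all of the CCAAT boxes upstream of it, 2 of which overlapped at -186 to -179.

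The homology element lay within 50 bases of the start, on either side, in 23 of the 25 promoters that held it. No such count was made over all promoters. In Kif2c and Mki67 the element lay only farther upstream. A window of 24 bases around it is shown for another 7 of the 23, taken from kinases, checkpoint, kinetochore, motor and midzone genes, to show what surrounds it. Each is read 5′ to 3′ in the direction of the element, which is in capitals.
Plk1 (chr7:122159453-122159476, plus strand): cccagcgccgcgTTTGAAttcggg
Ccnb2 (chr9:70421539-70421562, minus strand): agcggcgcggtaTTTGAAtcgcgg
Kif22 (chr7:127042420-127042443, plus strand): ccgcttctctctTTTGAAttaccg
Prc1 (chr7:80294434-80294457, plus strand): cctctggctcggTTTGAAttccgc
Kif23 (chr9:61946786-61946809, minus strand): ctgattggcctgTTTGAAatgcgc
Bub1 (chr2:127831834-127831857, minus strand): ctgcgcggggaaTTCGAAtcgccg
Ndc80 (chr17:71526811-71526834, plus strand): aacccaaggcggTTTGAAttttaa

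In Plk1, Prc1 and Kif22 the element was followed by a pair of T, in Ndc80 by a longer run of T, and Bub1 showed the TTCGAA form. The E2F cores of Ccnb1 and Ect2 overlapped a CCAAT box. Bub3, Ect2 and Prc1 had another start in the table, and positions are those at the first. The element lay after the start in Plk1 (31 to 36), Ndc80 (30 to 35), Bub1 (15 to 20), Ccnb2 (5 to 10) and Kif23 (3 to 8), and before it in Kif22 (-17 to -12), while in Prc1 it spanned the start (-5 to 1). Birc5, Ccnb1, Cenpe, Mad2l1, Nek2, Nuf2 and Pttg1 had no match in their windows, which says only that these letters are not there. Ccnb1 and Nek2 held CCAAT boxes, at -67 to -63 and -26 to -22 for the nearest before the start, and so did Cenpe, at -12 to -8.

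**Figure D2:**
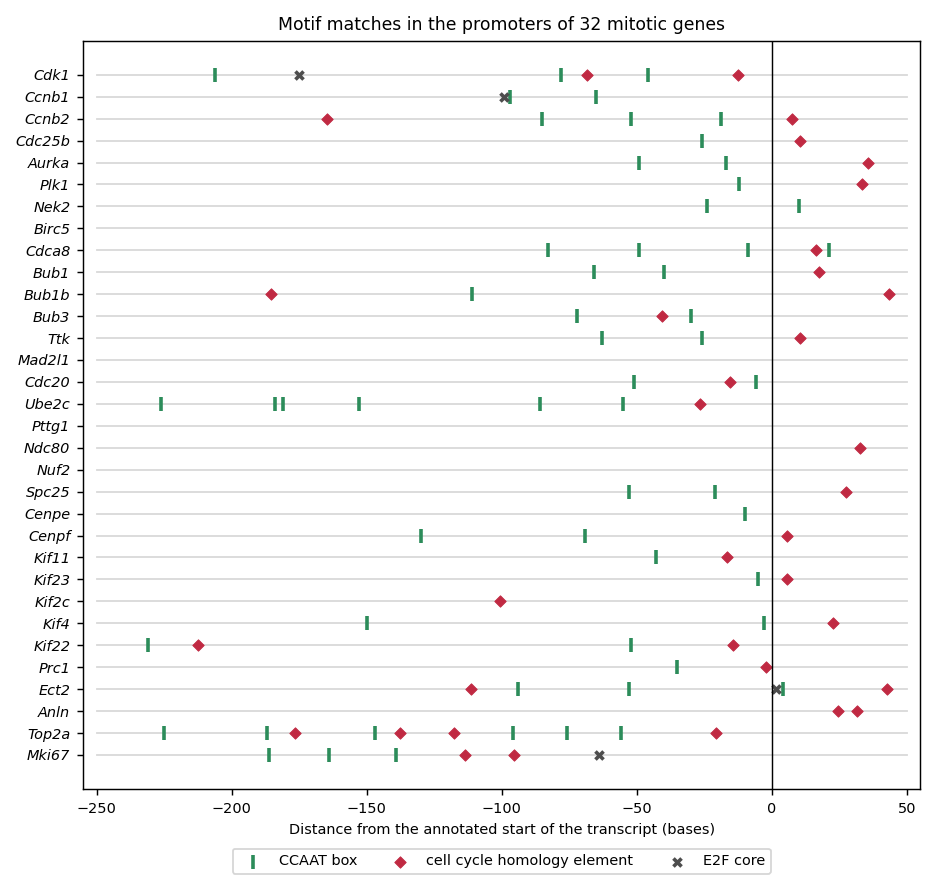
Distance of each motif match from the annotated transcript start, in bases, in the 32 promoters matched; green bars are CCAAT boxes, red diamonds the cell cycle homology element and grey crosses the E2F core. A homology element lies within 50 bases of the start in 23 promoters, and only farther upstream in Kif2c and Mki67.

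To compare the replicates gene by gene, counts were scaled with TMM, which sets the bulk of genes level, and the ratio was taken as replicate 1 over replicate 2. A gene was said to stand apart where the ratio was over 2-fold and its whole interval lay past 2-fold. By that rule 6 of the 40 genes stood apart with replicate 1 higher, Cdk1, Birc5, Bub1, Ndc80, Prc1 and Top2a, against 14.6% of the 11708 protein-coding genes with at least 20 counts in the libraries together. With replicate 2 higher there were 3, Cdc25c, Incenp and Cdc20, against 8.78% of all genes. These shares are close to those of all genes. Of all genes apart, 62.5% were higher in replicate 1 by TMM, but 88.0% with total-count scaling and 86.0% by TPM. By TPM 14 of the 40 stood apart with replicate 1 higher, against 24.2% of all genes, and 1, Cdc25c, with replicate 2 higher, against 3.92%. Cdc25b, Foxm1, Aurka, Spc25, Cenpe, Kif11, Kif2c and Anln stood apart by TPM only. The median log2 ratio of the 40 genes was 0.43, with 28 above 0 and 12 below. Relative to the median of all genes it was 0.39 by TMM, 0.39 with total-count scaling and 0.36 by TPM, while the median of all genes was itself 0.04, 0.47 and 0.45 on those scales. Ccna2, Aurkb, Bub3, Spc24 and Kif22 were below 0 by TMM-scaled counts and above 0 by TPM. Relative to the median of all genes these 5 were below 0 on both scales, by TPM from -0.17 for Ccna2 to -0.39 for Kif22. Across the 40 genes, log2(TPM + 1) in the replicates correlated with a Pearson's r of 0.90 and a Spearman's rho of 0.88, against 0.92 and 0.91 over 11690 genes with a GC value; genes of 1 pair of libraries share depth and processing, so these are descriptions.

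**Figure D3:**
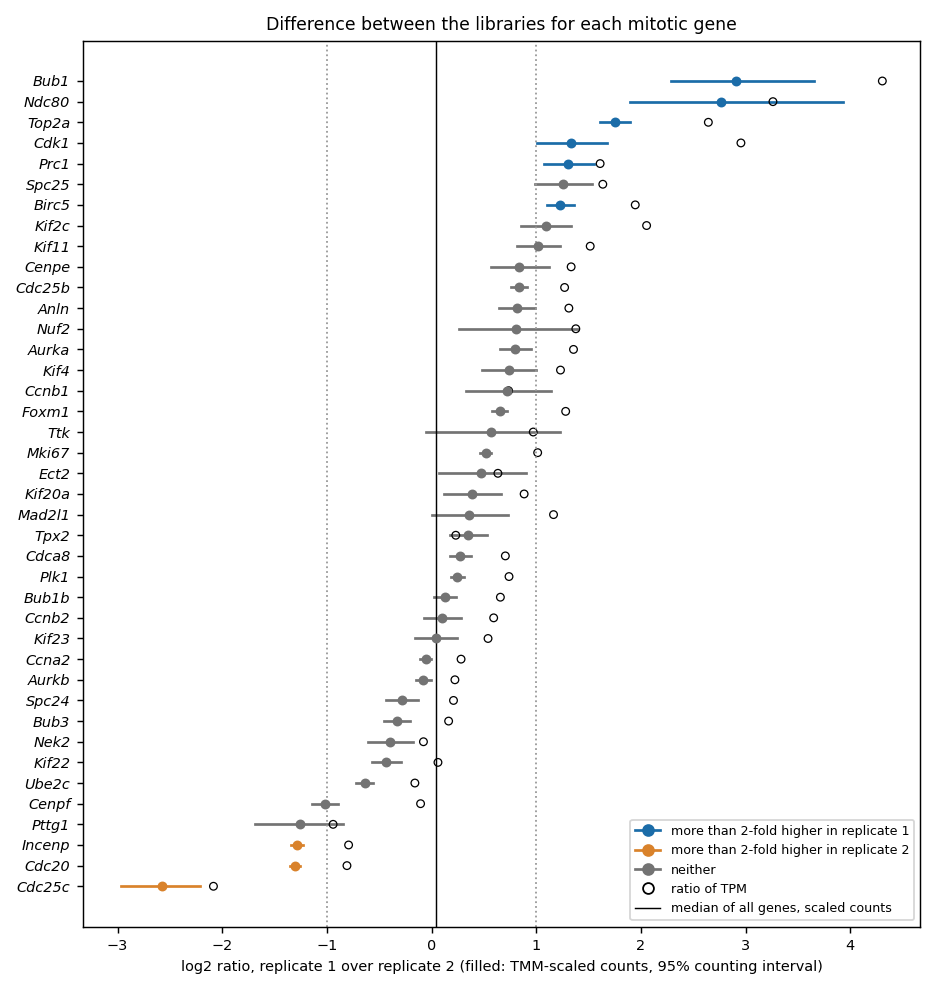
Log2 ratio of replicate 1 over replicate 2 for each of the 40 mitotic genes: filled points are TMM-scaled counts with 95% counting intervals, open circles the ratio of TPM, dotted lines mark 2-fold and the solid line the median of all genes (0.04). Bub1 and Ndc80 lie farthest to the right, Cdc25c farthest to the left, and most open circles lie to the right of their filled points.

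Among the genes of mitotic entry, all 7 were at 1 TPM or more in both libraries. Ccna2 (ENSMUSG00000027715.5, chromosome 3, 36564865 to 36572150 on mm10), which encodes cyclin A2 of S phase and early mitosis, had 314 TPM in replicate 1 and 258 TPM in replicate 2. Over all transcripts it was the most abundant of the 40 genes, at 286 ± 39.3 TPM (SD, n = 2), but its coding transcript averaged 31.2 TPM, the 11th place. Its replicates differed little over all transcripts, with a log2 ratio of -0.06 (-0.11 to -0.00342), against 0.41 by counts of the coding transcript. Cdk1 (ENSMUSG00000019942.8, chromosome 10, 69335146 to 69352938), the kinase of mitotic entry, had 35.1 TPM from 345 counts in replicate 1 and 4.51 TPM from 97 counts in replicate 2. Replicate 1 was therefore 2.52-fold higher by scaled counts, with a log2 interval of 1.01 to 1.68, but 7.77-fold higher by TPM. The call of Cdk1 was lost with DESeq2 size factors (log2 ratio 1.30), with GC centring (1.08) and with counts of coding transcripts only (0.11). The effective gene length behind the TPM was shorter in replicate 1, at 498 bases, than in replicate 2, at 1084 bases, which follows from the transcripts to which the counts were assigned, described further on.

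The cyclins B, partners of Cdk1, were lower than cyclin A2. Ccnb2 had 23.7 TPM in replicate 1 and 15.7 TPM in replicate 2, and Ccnb1 had 4.30 and 2.57 TPM, from 170 and 73 counts. Neither stood apart, and the log2 ratio of Ccnb2 (0.10, -0.07 to 0.28) had an interval that spanned 0. Ccnb1 shares 24.3% of its words of 25 bases with the processed pseudogene Ccnb1-ps and 19.7% with Gm12856, so its level is uncertain, although those pseudogenes were listed at no more than 0.13 TPM. It was also the only 1 of the 40 genes for which the deposited posterior SD of the count was above 0; for the other 39 it was 0 in both libraries.

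The Cdc25 phosphatases, which remove the inhibitory phosphates from Cdk1, went in opposite directions. Cdc25b had 85.4 TPM in replicate 1 and 35.4 TPM in replicate 2, a log2 ratio of 0.83 (0.76 to 0.91) by scaled counts. Cdc25c had 2.10 TPM from 75 counts in replicate 1 and 8.95 TPM from 320 counts in replicate 2. This was the widest difference in favour of replicate 2 among the 40 genes, 5.97-fold by scaled counts, with a log2 ratio of -2.58 (-2.97 to -2.22). Foxm1, the transcription factor of G2 and mitotic genes, had 88.2 TPM in replicate 1 and 36.3 TPM in replicate 2.

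Of the polo, aurora A and NIMA kinases, Plk1 was the most abundant. Plk1 (ENSMUSG00000030867.6, chromosome 7, 122159439 to 122169873), the polo kinase of centrosome maturation and cytokinesis, had 147 TPM in replicate 1 and 87.8 TPM in replicate 2, with a log2 ratio of 0.25. It shares 20.6% of its words with the pseudogene Plk-ps1, which was listed at 0 TPM in both libraries. Aurka, the aurora kinase of spindle poles, had 41.3 TPM in replicate 1 and 16.2 TPM in replicate 2, a log2 ratio of 0.80 (0.65 to 0.95). Nek2, a centrosome kinase, was the lowest of them and close between replicates in TPM, at 7.11 TPM in replicate 1 and 7.50 TPM in replicate 2. By scaled counts its log2 ratio was -0.40 (-0.61 to -0.18).

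The chromosomal passenger complex, which corrects wrong attachments and guides cytokinesis, was abundant as a whole over all transcripts. Its 4 members were at 28.0 TPM or more in every library, and their median was 132 TPM in replicate 1 and 101 TPM in replicate 2. Aurkb (ENSMUSG00000020897.8, chromosome 11, 69045647 to 69051664), its kinase, had 275 TPM in replicate 1 and 235 TPM in replicate 2, a mean of 255 ± 27.7 TPM (SD, n = 2). Cdca8, which encodes the targeting subunit borealin, had 156 TPM in replicate 1 and 95.6 TPM in replicate 2. By coding transcripts alone, Aurkb had 51.1 TPM in replicate 1 and 28.0 TPM in replicate 2, and Cdca8 had 43.1 and 26.1 TPM. Neither stood apart. Birc5 and Incenp did, in opposite directions. Birc5, which encodes survivin, had 108 TPM in replicate 1 and 28.0 TPM in replicate 2, from 2092 and 635 counts, a log2 ratio of 1.23 (1.10 to 1.36); its call was lost when the ratio was centred by GC content (0.98). Incenp, the scaffold that binds aurora B, had 60.9 TPM in replicate 1 and 106 TPM in replicate 2, from 3713 and 6453 counts, a log2 ratio of -1.29 (-1.35 to -1.23).

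The spindle checkpoint genes were lower, with a median of 7.89 TPM in replicate 1 and 3.50 TPM in replicate 2, and 3 of the 5 were at 1 TPM or more in both. Bub3, a WD-repeat protein that brings checkpoint kinases to kinetochores, had 28.7 TPM in replicate 1 and 25.7 TPM in replicate 2. Bub1b, which encodes BubR1 of the complex that inhibits Cdc20, had 28.3 TPM in replicate 1 and 17.9 TPM in replicate 2. Neither of these genes stood apart. Bub1 (ENSMUSG00000027379.9, chromosome 2, 127801122 to 127831865), the checkpoint kinase that marks the centromere, had the highest ratio of the 40 by scaled counts of all transcripts, with an interval inside that of Ndc80. It had 7.89 TPM from 226 counts in replicate 1 and 0.39 TPM from 21 counts in replicate 2, a 7.49-fold difference by scaled counts with a log2 interval of 2.29 to 3.66. Mad2l1, which encodes the inhibitor Mad2, had 7.86 TPM in replicate 1 and 3.50 TPM in replicate 2, from 181 and 100 counts. Ttk, which encodes the kinase Mps1 at the head of the checkpoint, was the lowest of the 40, at 1.24 TPM in replicate 1 and 0.63 TPM in replicate 2, and with 67 and 32 counts its ratio was not separable from 0 at this depth (0.56, -0.05 to 1.23).

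The 3 genes of the anaphase ubiquitin pathway were all higher in replicate 2, on the TPM scale as well as by scaled counts. Cdc20 (ENSMUSG00000006398.11, chromosome 4, 118432901 to 118437352), the activator of the anaphase-promoting complex, had 168 TPM in replicate 1 and 294 TPM in replicate 2, from 5505 and 9650 counts. Replicate 2 was 2.47-fold higher by scaled counts, with a log2 ratio of -1.30 (-1.35 to -1.25). Cdc20 shares 29.4% of its words with the pseudogene Gm7856, listed at 0.07 TPM in replicate 1 and 0 TPM in replicate 2. Ube2c (ENSMUSG00000001403.9, chromosome 2, 164769898 to 164778822), the ubiquitin-conjugating enzyme of that complex, had 138 TPM in replicate 1 and 154 TPM in replicate 2. Its exons overlap those of Tnnc2 on the other strand over 22.8% of their length, and Tnnc2 was listed at 0 and 0.18 TPM. Pttg1, which encodes securin, the inhibitor of separase, had 6.49 TPM in replicate 1 and 12.5 TPM in replicate 2, from 78 and 133 counts, with a log2 interval of -1.68 to -0.85.

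The Ndc80 complex, the 4-part coupler between kinetochore and microtubule, was uneven in level across its subunits. Spc24 had 32.1 TPM in replicate 1 and 27.8 TPM in replicate 2. Its partner Spc25 had 19.9 TPM in replicate 1 and 6.39 TPM in replicate 2, a log2 ratio of 1.25 whose interval (0.99 to 1.53) just reached inside 2-fold. The subunits of the microtubule-binding end were near or under the level of 1 TPM. Ndc80 (ENSMUSG00000024056.9, chromosome 17, 71496100 to 71526857), the subunit that names the complex, had 2.45 TPM from 100 counts in replicate 1 and 0.24 TPM from 10 counts in replicate 2, a log2 ratio of 2.77 (1.89 to 3.93). Nuf2, with which it forms a coiled coil, had 2.26 TPM in replicate 1 and 0.86 TPM in replicate 2, a log2 ratio of 0.80 (0.26 to 1.40). All 4 proteins occur together in 1 complex, while the mean TPM of Spc24, at 30.0, was above those of Nuf2, at 1.56, and Ndc80, at 1.35.

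The very long kinetochore corona proteins were also scarce per length. Cenpe, a kinesin that moves chromosomes to the spindle equator, had 2.55 TPM in replicate 1 and 1.01 TPM in replicate 2. Cenpf, a coiled-coil protein of late G2 and the kinetochore, had 6.45 TPM from 932 counts in replicate 1 and 6.94 TPM from 1341 counts in replicate 2. Its log2 ratio was -1.02 (-1.14 to -0.90) by scaled counts and -0.11 by TPM. Only part of that gap follows from the length assigned to it, 7450 bases in replicate 1 and 9872 bases in replicate 2. The median of all genes also moved, from 0.04 by scaled counts to 0.45 by TPM.

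None of the 6 kinesins stood apart by scaled counts, although Kif11 and Kif2c did by TPM. Kif22, which pushes chromosome arms away from the poles, was the most abundant and, by TPM, the most even, at 23.6 TPM in replicate 1 and 22.7 TPM in replicate 2, while by scaled counts its log2 ratio was -0.43 and that of Kif23 was 0.04. Kif2c, the microtubule depolymerase MCAK, had 16.0 TPM in replicate 1 and 3.86 TPM in replicate 2, a log2 ratio of 1.09 (0.85 to 1.33) by scaled counts and 2.05 by TPM. Kif11, the motor that separates the spindle poles, had 8.07 TPM in replicate 1 and 2.82 TPM in replicate 2. The motors of the central spindle were Kif23, at 7.69 TPM in replicate 1 and 5.29 TPM in replicate 2, Kif20a, at 4.65 and 2.52 TPM, and Kif4, a chromosome-bound motor that also acts there, at 4.43 and 1.88 TPM. The exons of Kif20a overlap those of Cdc23 on the other strand over 29.3% of their length. Cdc23 had 28.6 TPM in replicate 1 and 16.4 TPM in replicate 2. The exons of Kif4 overlap those of Pdzd11, also on the other strand, over 15.1%, and Pdzd11 had 10.0 and 1.45 TPM. Both neighbours were higher in replicate 1, as Kif20a and Kif4 were. Whether the counting used strand is not given, so reads of these pairs cannot be told apart.

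Of the spindle and cytokinesis proteins, Prc1, which bundles microtubules at the midzone, had 29.7 TPM from 672 counts in replicate 1 and 9.70 TPM from 193 counts in replicate 2. Its log2 ratio of 1.31 (1.08 to 1.55) was past 2-fold, but its call was lost when the ratio was centred by GC content (1.06). Prc1 overlaps Rccd1 on the other strand over 11.1% of its exon length, and Rccd1 had 5.41 TPM in replicate 1 and 12.0 TPM in replicate 2, the opposite order. Tpx2, the activator of aurora A on microtubules, had 11.2 TPM in replicate 1 and 9.53 TPM in replicate 2. Anln, which encodes anillin of the contractile ring, had 9.40 TPM in replicate 1 and 3.79 TPM in replicate 2. Ect2, the exchange factor that activates RhoA at the equator, had 3.02 TPM in replicate 1 and 1.94 TPM in replicate 2.

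The last pair are widely used to mark proliferating cells. Top2a (ENSMUSG00000020914.13, chromosome 11, 98992943 to 99024189) encodes the topoisomerase that untangles sister chromatids. There were 80.8 TPM from 2362 counts in replicate 1 and 12.9 TPM from 500 counts in replicate 2. Replicate 1 was 3.36-fold higher by scaled counts, with a log2 ratio of 1.75 (1.61 to 1.89), and 6.25-fold higher by TPM. Mki67, which encodes the antigen Ki-67 that coats mitotic chromosomes, had 42.8 TPM in replicate 1 and 21.2 TPM in replicate 2. Its log2 ratio of 0.51 (0.46 to 0.57) was within 2-fold by scaled counts. By the deposited intervals of TPM, 25 of the 40 genes were higher in replicate 1 without overlap, against 46.4% of all genes with at least 20 counts, 5 were higher in replicate 2, against 19.3%, and 10 overlapped. The TPM of Ccna2, Plk1, Incenp, Cdc20 and Mki67 lay outside the deposited interval in both libraries, and that of Bub1 in replicate 2.

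Which transcript carried a gene mattered for some of the highest levels. Of the 40 genes, 13 had 1 transcript in the tables and 27 had several, and of these 27 the same transcript held the greatest share in both libraries in 20. In 5 genes (Ccna2, Aurkb, Cdca8, Mad2l1 and Top2a) a transcript not annotated as coding held the greatest share in both libraries, not the same one in Top2a, and in another 5 in 1 library only. Among genes at 1 TPM or more in both libraries with at least 1 such transcript, 6 of 21 had under 50% of their TPM in coding transcripts in both libraries (28.6%), against 26.9% of all such genes. The share was close to that of all such genes. Leading transcripts were not counted over all genes, so how common such leads and changes of lead are elsewhere is not known.

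Ccna2 was the clearest case. Ccna2-202, annotated as a retained intron of 856 bases with 33.3% of its bases outside the coding exons, made up 86.8% of Ccna2 in replicate 1 and 91.6% in replicate 2, while the coding transcript held 12.9% and 8.40%. Aurkb-204, a processed transcript of 615 bases, held 48.4% in replicate 1 and 64.7% in replicate 2, and Cdca8-203, of 645 bases, held 72.2% and 72.7%. These transcripts are short and lie mostly on coding exons, so a given count gives them more TPM than the full-length form, and reads of shared exons are assigned to them by the authors' estimate. By TPM of coding transcripts alone, Ccna2 had 40.7 TPM in replicate 1 and 21.7 TPM in replicate 2 and took the 11th place among the 40 genes, against the 1st by all transcripts. Aurkb had 51.1 and 28.0 TPM and took the 8th place, against the 2nd. The leading 3 became Cdc20, Ube2c and Plk1, whose TPM was all, or within rounding all, in coding transcripts.

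Other genes changed their leading transcript between the libraries. In replicate 1, 83.1% of the TPM of Cdk1 was in the retained-intron transcript Cdk1-204, of 475 bases and 197 counts, while in replicate 2 that transcript held 3.63%, from 1.09 counts, and the coding Cdk1-202 held 96.4%. Counts of coding transcripts only were an alternative chosen after seeing the data. Coding transcripts alone held 146 counts of Cdk1 in replicate 1 and 95.9 in replicate 2, so that on them the libraries were close to even once scaled. In Top2a, Top2a-202 at the 5′ end of the gene held 73.8% in replicate 1, from 589 counts, and 0% in replicate 2, while Top2a-207 at the 3′ end held 1.33% in replicate 1, from 14.2 counts, and 70.3% in replicate 2, from 119 counts. The coding transcript Top2a-201 had 16.98 TPM in replicate 1 and 3.69 TPM in replicate 2. The difference in Top2a was thus present in the coding transcript too.

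Several genes of the checkpoint were among those that varied. All of the TPM of Ttk was in the coding Ttk-201 in replicate 1 and in the retained-intron Ttk-204 in replicate 2, with 67 and 32 counts. By the authors' posterior mean, Ttk-201 held 72.1% in replicate 1 and 16.9% in replicate 2, and Ttk-204 held 8.94% and 53.8%. In Mad2l1 the retained-intron Mad2l1-203 held 40.2% in replicate 1 and 91.1% in replicate 2, from nearly equal counts of 96.6 and 97.5. Coding transcripts alone held 81.4 counts of Mad2l1 in replicate 1 and 2.14 in replicate 2, and 67 counts of Ttk in replicate 1 and 0 in replicate 2. On coding counts both genes therefore stood apart. On that scale 7 of the 40 genes stood apart with replicate 1 higher and 3 with replicate 2 higher, against 1996 and 1051 over all genes. In Bub1 the retained-intron Bub1-203 held 62.5% in replicate 1, from 44.2 counts, and 20.2% in replicate 2, from 0.70 counts, while the coding Bub1-201 had 177 counts in replicate 1 and 20.3 in replicate 2. Nek2-202 held 26.8% in replicate 1 and 61.2% in replicate 2, and Ect2-201 held 31.7% and 41.7%. In Foxm1, the other gene of these 7 whose leading transcript changed, both leading transcripts were coding, Foxm1-202 in replicate 1 (52.5%) and Foxm1-201 in replicate 2 (61.6%).

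**Figure D4:**
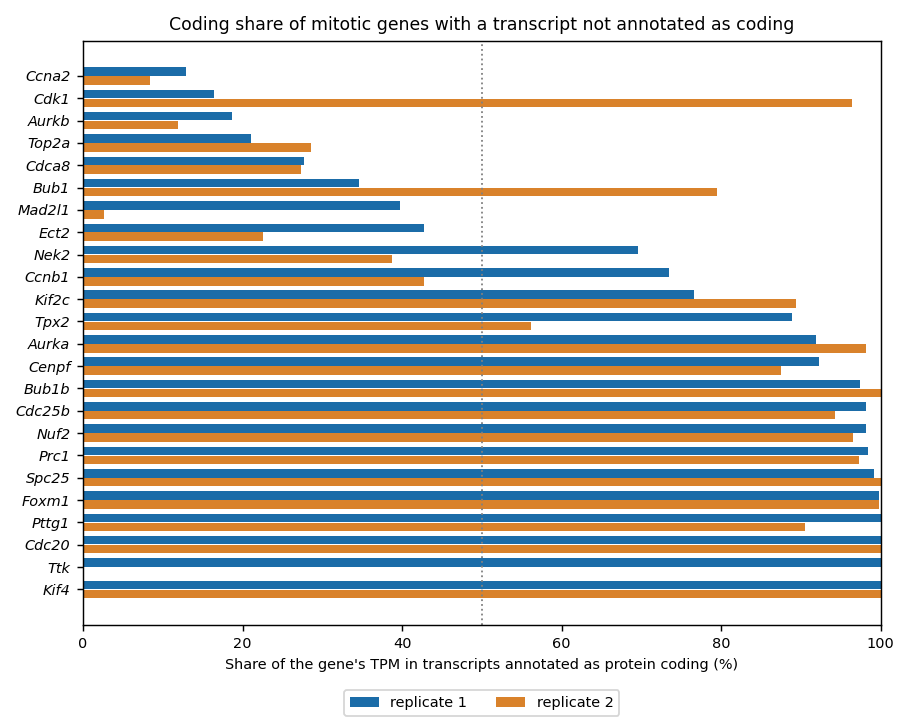
Share of each gene's TPM in transcripts annotated as protein coding, in percent, in replicate 1 (blue) and replicate 2 (orange), for the mitotic genes with at least 1 other transcript; the dotted line is at 50%. Ccna2, Aurkb, Top2a, Cdca8, Mad2l1 and Ect2 lie below the line in both libraries, and Cdk1, Bub1, Nek2, Ccnb1 and Ttk change sides, Ttk with 0% in replicate 2.

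Level and library difference both moved with base composition. Across the 40 genes, the GC content of the longest coding transcript and log2(mean TPM + 1) had a Pearson's r of 0.69 and a Spearman's rho of 0.67, against 0.29 and 0.29 over 11690 genes. With TPM of coding transcripts only, r was 0.79 and rho 0.74. The abundant Cdc20 (55.6% GC), Ube2c (55.5%) and Plk1 (56.0%) were at the top of the GC range of these genes, and the scarce Ttk (43.0%), Nuf2 (42.3%) and Cenpe (42.9%) toward its lower end. GC content and the log2 ratio had an r of -0.38 and a rho of -0.42 across the 40 genes, and of -0.33 and -0.32 over all genes. With all genes put into 5 equal bins of GC content, the median log2 ratio was 0.56 in the lowest bin and -0.53 in the highest. Of the 40 genes 12, 13, 8, 7 and 0 fell into these bins, from low to high. Relative to the median of its own bin, an alternative chosen after seeing the data, the median gene of the 40 was at 0.14 in place of 0.43, and 23 of the 40 were above their bin's median. Why the libraries differed along GC content was not tested.

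**Figure D5:**
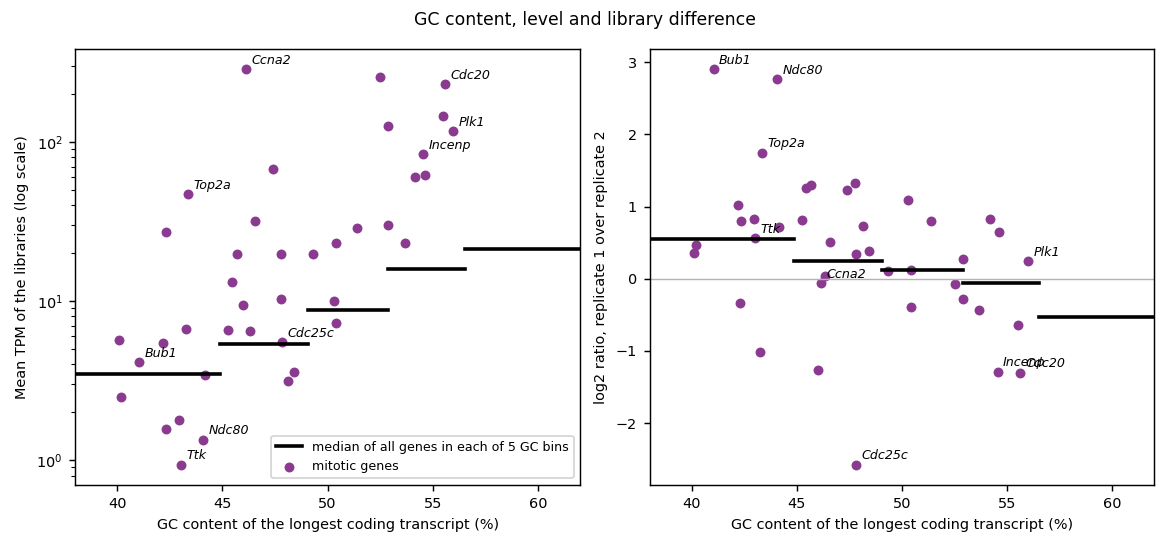
GC content of the longest coding transcript (percent) against mean TPM (left, log scale) and against the log2 ratio of replicate 1 over replicate 2 by scaled counts (right); purple points are the 40 mitotic genes and black bars the medians of all genes in each of 5 bins of GC content, cut at the edges of the plot. Levels climb from Ttk to Cdc20 and Plk1 with GC content, and the medians of the ratio fall from 0.56 to -0.53.

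Other genes of the pathway were mostly expressed as well. Of 97 other genes of the kinetochore, checkpoint, anaphase-promoting complex, spindle and mitotic entry, 81 were at 1 TPM or more in both libraries, and the median log2 ratio was 0.43. Of the 96 with at least 20 counts, 25 stood apart with replicate 1 higher (26.0%), against 15.0% of the 40 mitotic genes and 14.6% of all genes, and 5 with replicate 2 higher (5.21%), against 7.5% and 8.78%. In the inner kinetochore 21 of 25 genes were at 1 TPM or more in both, with 6 and 2 apart. Cenpa, the centromeric histone, had 295 TPM in replicate 1 and 376 TPM in replicate 2, while Cenpn, which binds it, had 14.1 and 1.30 TPM, a log2 ratio of 2.93. Of 11 checkpoint partners 10 were at that level in both libraries, and 5 stood apart, all with replicate 1 higher. Among these, Sgo1, the protector of centromeric cohesin, had 24.1 TPM in replicate 1 and 2.08 TPM in replicate 2, and Bora, the cofactor by which aurora A activates Plk1, had 9.25 and 2.05 TPM.

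Of 18 genes of the anaphase-promoting complex and its regulators 17 were at 1 TPM or more in both, and 4 stood apart, all with replicate 1 higher. Ube2s, which extends the chains that Ube2c begins, was the highest, with 648 TPM in replicate 1 and 405 TPM in replicate 2, and the RING subunit Anapc11 had 157 and 38.4 TPM, a log2 ratio of 1.52. Of 25 other spindle and cytokinesis genes 18 were at that level in both and 7 stood apart, again with replicate 1 higher, Dlgap5, a spindle assembly factor, with 28.1 TPM in replicate 1 and 2.42 TPM in replicate 2. Of 18 genes of entry control 15 were at that level, with 3 apart in each direction and a median log2 ratio of -0.10. There Pkmyt1, the kinase that inhibits Cdk1, had 225 TPM in replicate 1 and 342 TPM in replicate 2, and Cks2, a small Cdk-binding subunit, had 160 and 17.3 TPM.

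Relatives of the 40 genes from the same families had a lower median level, though some were above their relative. Of 21 such paralogs measured, 12 were at 1 TPM or more in both libraries, and their median mean level was 1.71 TPM, against 16.4 TPM for the 40 genes. Mad2l2 had 23.3 TPM in replicate 1 and 17.7 TPM in replicate 2, above Mad2l1, and Cdc25a had 19.1 and 16.6 TPM, above Cdc25c. Top2b, the relative of Top2a that is not tied to division, had 26.8 TPM in replicate 1 and 18.9 TPM in replicate 2, a log2 ratio of 0.00 (-0.08 to 0.08), where Top2a had 1.75. Other groups of cell cycle genes lay nearer the mitotic genes in level. Of 23 replication licensing genes 22 were at 1 TPM or more in both, with a median mean level of 18.7 TPM and a median log2 ratio of 0.70. With replicate 1 higher 7 stood apart (30.4%), against 14.6% of all genes, and with replicate 2 higher 0, against 8.78%. Of 21 cohesin and condensin genes 18 were at 1 TPM or more in both, with a median of 7.91 TPM and a median log2 ratio of 0.25. With replicate 1 higher 4 stood apart (19.0%), and with replicate 2 higher 0. No difference between these lists was tested.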

How the data were processed

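Polyadenylated RNA of mouse leukemia stem cells was sequenced in 2 libraries of 1 group. Per the file headers and readmes, the authors quantified genes and transcripts on mm10 with GENCODE M4. Aligner and quantifier: not given in the sources used here. Deposited values in use were expected counts (estimated, not always whole; totals 23575315 in replicate 1 and 22541765 in replicate 2), TPM, FPKM as an alternative, the percent of a gene held by each transcript, and the authors' posterior SD and TPM interval bounds, kept as a signal on the scale of the values they belong to. Of 43346 Ensembl rows 42462 matched GENCODE M21, which gave symbols, types, positions, lengths and GC content; the unmatched rows held 0.230% of counts in replicate 1 and 0.214% in replicate 2.

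The members and lists were chosen with earlier results of these data known. Counts were rounded and scaled with TMM (edgeR 4.0.16, R 4.3.3; DESeq2 1.42.0 size factors as an alternative), and 0.5 was added to each count before taking the ratio, whose exact binomial interval was set at 95%, over genes with 20 or more counts together; the ratio was checked on simulated data. With 1 group no test was made and no p-value computed. Of other lists, up to 4 genes with the highest mean TPM and up to 4 apart at a mean of 5 TPM or more could be named. Shared sequence was counted in words of 25 bases and kept from 3%, and not all of it is named. Promoters came from RefSeq on GRCm38.p6. Alternatives were other TPM minimums, FPKM, posterior means, scalings, prior counts, count minimums, deposited intervals, each library alone, promoter windows and, chosen after seeing the data, coding transcripts only and centring by GC content. Python 3.11.15, numpy 2.4.6, pandas 2.3.3, scipy 1.17.1 and matplotlib 3.10.9 were used.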

Additional observations from a re-analysis of the deposited data

How the results depend on the processing

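The number of mitotic genes at 1 TPM or more in both libraries was 34 to 38 with a minimum of 0.5 TPM, FPKM, posterior means, nuclear coding TPM or coding transcripts only, 25 at 5 TPM and 18 at 10 TPM. Leaving out replicate 2 gave 40, and leaving out replicate 1 gave 36. The median level was 21.8 TPM without replicate 2 and 9.62 TPM without replicate 1. With coding transcripts only it was also 9.62 TPM, against 16.4 TPM over all transcripts. The genes apart with replicate 1 higher numbered 13 with total-count scaling, 14 by TPM and 3 when centred by GC content, against 6. Over all genes with at least 20 counts these numbers were 2703, 2830 and 1444, against 1710. Those with replicate 2 higher numbered 1, 1 and 5, against 3, and over all genes 370, 459 and 1028, against 1028. The deposited intervals with a 2-fold difference gave 17 and 1, for which no number over all genes is given. DESeq2 size factors gave 5 and 3, with Cdk1 lost, and 1658 and 1097 over all genes. Counts of coding transcripts only gave 7 and 3, and 1996 and 1051 over all genes. The median log2 ratio was 0.86 with total-count scaling, 0.81 by TPM and 0.14 when centred by GC content; the difference between scalings follows from the median of all genes. Genes led by a transcript not annotated as coding numbered 7 without replicate 2 and 8 without replicate 1, against 5 in both. The 25 promoters with the homology element and the 25 with a CCAAT box were as many in the shorter window, and those with the E2F core were 3 against 4. Leaving out a replicate gives no ratio, so that was not run.

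No paired analysis was possible because there was 1 group. Depth limits the ratios of Ttk, Nuf2, Ndc80 and Bub1, with 10 to 38 counts in replicate 2. With 2 libraries, a difference between them has no further replicate, and the intervals cover counting error only. The cause of the differences between the libraries was not tested.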
